A study of Mus musculus with 2 samples.

Results

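The genes described here are those of the mouse major histocompatibility complex (MHC) and of antigen presentation. They were chosen by name: every probe set annotated to exactly 1 gene symbol beginning with H2-, and those of Cd74, Ciita, B2m, Tap1, Tap2, Tapbp, Psmb8, Psmb9, Psmb10, Nlrc5, Erap1, Cd1d1 and Ctss. The rule used no measured value and gave 69 of the 45101 probe sets, which stand for 36 of 18194 named genes. Of the 36 genes, 28 lie on mouse chromosome 17, where the H2 complex is. The groups were mice with a germline deletion of CD36 (CD36KO), a membrane receptor that takes up fatty acids and binds oxidized lipoproteins, and wild-type (WT) mice, both on the C57BL/6 background and both fed chow freely. For each genotype the RNA of the proximal section of the whole intestine from 3 animals was pooled and hybridized to 1 Affymetrix expression array, so there was no replicate and no difference could be tested or set against the spread between animals. The sources used here state no ages.

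MHC class I molecules are made of a heavy chain and beta-2 microglobulin and carry peptides of proteins degraded in the cytosol to the surface of nearly every nucleated cell, where CD8 T cells read them. Class II molecules carry peptides of proteins taken up and degraded in endosomes and are read by CD4 T cells. They are abundant on dendritic cells, macrophages and B cells, and the enterocytes of the small intestine display them too. Nonclassical class I molecules resemble the classical ones in fold but vary little between individuals and often present special ligands to particular lymphocytes.

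All values are the authors' deposited log2 values, and a difference is the CD36KO value minus the WT value. A gene was represented by its probe set with the highest mean of the arrays and passed the expression filter where it reached 4.51 in at least 1 pool. That threshold is the array-wide median of the higher value of each probe set. Levels of different probe sets are not compared. The array medians were 4.38 in CD36KO and 4.38 in WT. Cd36 itself read 5.87, 6.02 and 3.52 in CD36KO, against 7.70, 7.68 and 4.74 in WT, at its 3 probe sets, 2.33-fold to 3.56-fold lower. The sources used here do not say whether these probe sets lie inside the deletion. The epithelial markers lay between 10.62 and 13.35 in CD36KO and between 10.27 and 13.31 in WT, far above the filter in both pools. The pools differed in gut segment markers: in CD36KO, 9 of 11 distal genes were higher by 1.5-fold or more, with a median difference of 1.55 (7 of 9 and 1.09 for those above the filter in both pools), and 7 of 12 proximal genes lower by as much, with a median of -0.86. They differed in pancreas acinar genes (9 of 9 at least 1.5-fold higher, median 1.81) and fibroblast markers (7 of 10, median 1.09) as well. These lists, like those used below, were chosen with earlier results of these data known. Their counts therefore describe the pools and are not independent evidence. Among all genes above the filter 5.31% were higher by 1.5-fold or more and 3.31% lower. The RNA of the control transcripts was covered more evenly in CD36KO, where the 3' minus 5' difference was 1.34 for beta-actin and 0.71 for GAPDH, against 2.28 and 1.28 in WT. The part of these differences between the pools in the values below was not tested.

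Of the 36 genes, 33 passed the expression filter, and each class I, nonclassical and class II gene that passed did so in both pools. Of the class II genes, 11 of 12 read higher in the CD36KO pool, by a median of 0.29 (log2), with none at 1.5-fold. Class I genes differed little, with a median of 0.080 over 11 genes and no difference beyond 0.29 in either direction. The nonclassical genes had nearly the same median, 0.080 over 9 genes, but the widest range, and they held the 2 members past 1.5-fold, H2-T3 (3.99-fold higher) and H2-Bl (2.07-fold higher). Over all 11981 genes above the filter the median difference was -0.0059, 5.31% were higher by 1.5-fold or more, 3.31% lower by as much and 48.8% had a difference above 0. The 2 of 33 members at least 1.5-fold higher are thus a share near that of all genes, and 0 of 33 were at least 1.5-fold lower. The medians near 0 moved with the setting: that of class I was 0.0064 with the least differing probe set of each gene and 0.22 with every probe set counted, and that of the nonclassical genes was 0.038 under quantile normalization and 0.21 with a filter at the 75th percentile.

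**Figure D1:**
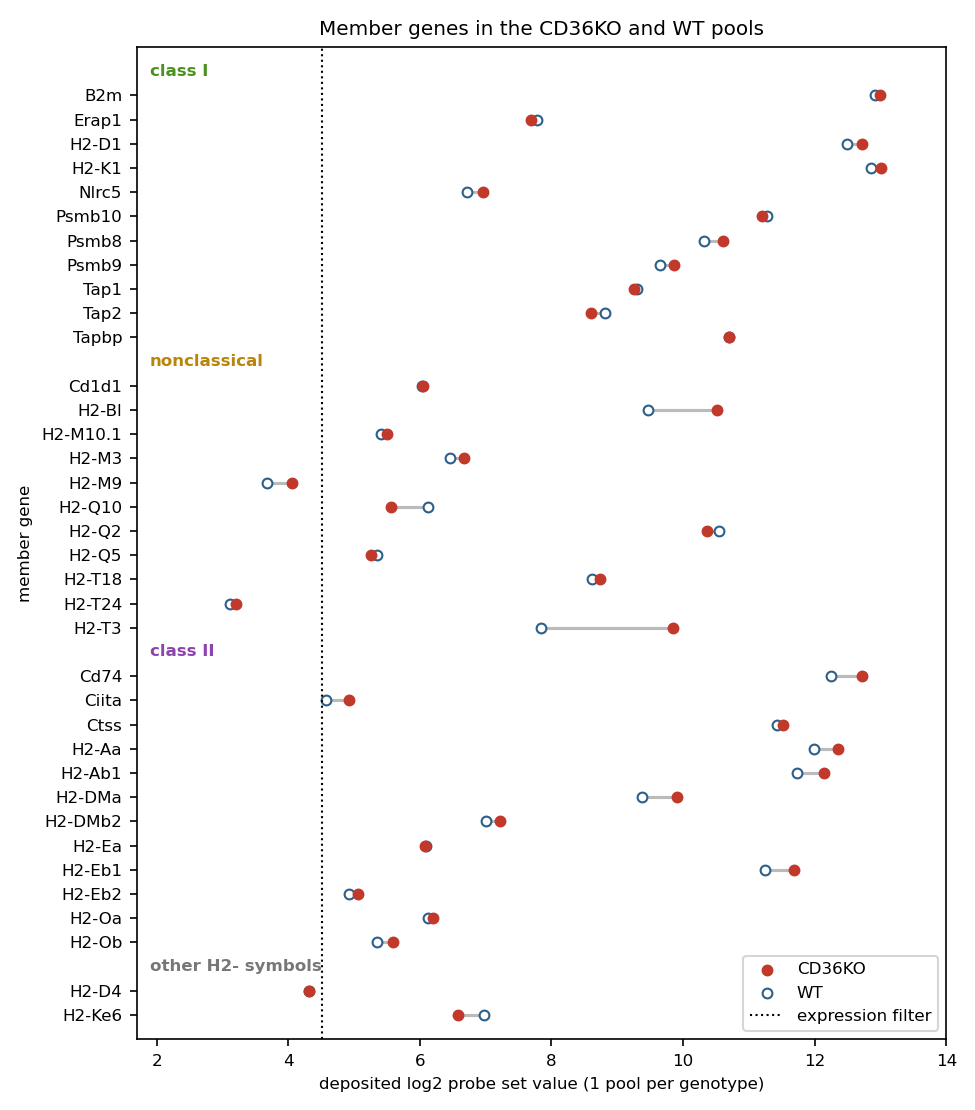
Deposited log2 values (horizontal axis) of the 36 member genes in the CD36KO pool (filled) and the WT pool (open), by class, with 1 pool per genotype; the dotted line is the expression filter at 4.51. The CD36KO point lies right of the WT point for 11 of the 12 class II genes, and the longest lines are those of H2-T3 and H2-Bl.

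A lower threshold, a difference of 0.32 (log2), separated the classes more. At that size 6 of 12 class II genes were higher and 0 lower, 2 of 9 nonclassical genes were higher and 1 lower, and 0 of 11 class I genes passed in either direction. Among all genes past the filter 14.7% were higher by that much and 12.9% lower. H2-Ke6, which lies in the complex but encodes a steroid dehydrogenase and presents no antigen, was the other member lower by that much, at 6.59 in CD36KO and 6.98 in WT.

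**Figure D2:**
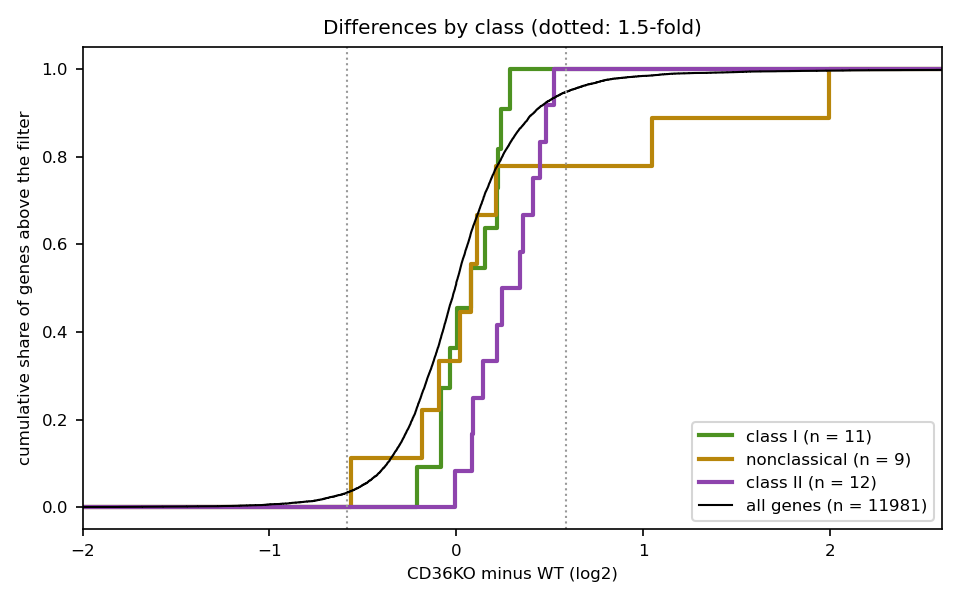
Cumulative share of genes above the filter (vertical axis) by CD36KO minus WT difference in log2 (horizontal axis) for class I (11 genes), nonclassical (9), class II (12) and all 11981 genes; dotted lines mark 1.5-fold. The class II curve lies right of that of all genes up to its last step at 0.52, while the nonclassical curve has its last steps at 1.05 and 2.00.

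The classical heavy chains on this array are H2-K1 and H2-D1. H2-K1 read 13.00 in CD36KO and 12.85 in WT, a difference of 0.15, and its other 3 probe sets differed by 0.25 to 0.27. H2-D1 read 12.71 in CD36KO and 12.49 in WT, a difference of 0.23. Of the 6 probe sets of H2-D1 above the filter, 5 read higher in CD36KO, by 0.14 to 0.31. The one at 0.31 passed the filter through the CD36KO pool alone, at 4.72 in CD36KO and 4.41 in WT, and the one that read lower was at 4.59 in CD36KO and 4.80 in WT. Heavy chains are nearly identical in sequence, and all 4 probe sets of H2-K1 and most of those of H2-D1 carry the suffix that the array's maker gives to probe sets with probes shared between genes, so their signals may be mixed. B2m, the light chain of every class I molecule, read 13.00 in CD36KO and 12.92 in WT, with a difference of 0.31 at its second probe set.

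The promoters of H2-K1 and H2-D1 are shown because these chains sit at high signal in both pools and share the elements through which NF-kB and interferon factors are known to act on class I genes; H2-T3 is set beside them as the member with the highest difference. The sequences are from RefSeq (GRCm38.p6) and read 5' to 3' on the strand of the gene. Capitals mark the letters of the kB element, GGGGATTCCC, and of the core of the interferon-stimulated response element (ISRE), AGTTTCACTT. Both were read from H2-K1, where these elements are known, and then searched for exactly on both strands of the 250 bases before the start of every gene. The stretches are chr17:34000415-34000473 (minus strand) for H2-K1, chr17:35262908-35262966 (plus strand) for H2-D1 and chr17:36190255-36190294 (minus strand) for H2-T3.
H2-K1: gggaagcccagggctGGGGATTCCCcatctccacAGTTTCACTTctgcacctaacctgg
H2-D1: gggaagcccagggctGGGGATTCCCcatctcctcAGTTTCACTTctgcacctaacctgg
H2-T3: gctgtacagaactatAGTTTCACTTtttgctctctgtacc
The kB letters were found in 28 of 32851 promoter windows of this length (0.0852%) and the ISRE letters in 42 (0.128%). Of the 24 members with a promoter in the table, H2-K1 and H2-D1 held the kB letters, and H2-K1, H2-D1, H2-T3 and H2-Q10 the ISRE letters. These 4 genes with the same ISRE letters had unlike differences, 0.15 for H2-K1, 0.23 for H2-D1, 2.00 for H2-T3 and -0.56 for H2-Q10. A match is a description of the letters and not of a bound site. The matches in H2-K1 were given by the choice of letters, and an exact search misses elements spelled otherwise.

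The genes that cut, carry and load class I peptides had a median difference of -0.034 over 7 genes, 3 of them above 0 and 4 below. Psmb8 and Psmb9, catalytic subunits of the immunoproteasome, read 10.60 and 9.87 in CD36KO against 10.31 and 9.65 in WT. The third such subunit, Psmb10, read 11.20 in CD36KO and 11.28 in WT. The genes of the peptide transporter read slightly lower, Tap1 at 9.26 in CD36KO and 9.29 in WT and Tap2 at 8.60 in CD36KO and 8.81 in WT. Tap2 had the lowest difference among the class I genes, -0.21.

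Tapbp, the tapasin that bridges the transporter and the heavy chain, read 10.70 in CD36KO and 10.69 in WT, with 0.50 at its second probe set. Erap1, which trims peptides in the endoplasmic reticulum, read 7.69 in CD36KO and 7.77 in WT, and its second probe set differed by -0.042. Nlrc5, the transactivator of class I genes, read 6.96 in CD36KO and 6.72 in WT. The class I genes thus differed in both directions, all by less than 0.32 at the probe sets used for the genes.

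H2-T3 encodes the thymus leukaemia antigen, which enterocytes of the mouse small intestine display and which binds the CD8 alpha homodimer of intraepithelial lymphocytes. At the probe set used for the gene it read 9.84 in CD36KO and 7.85 in WT, a difference of 2.00, and 99.6% of all genes above the filter had a lower difference. Its second probe set read 9.12 in CD36KO and 8.43 in WT, a difference of 0.69 or 1.62-fold. Both were past 1.5-fold in the same direction, but the size differed between them. H2-T18, a close relative of H2-T3 in the same region, read 8.73 in CD36KO and 8.62 in WT, at a probe set of the kind with probes shared between genes.

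H2-Bl, a further class I-like gene, read 10.51 in CD36KO and 9.47 in WT at its single probe set, a difference of 1.05. H2-Q10, a secreted class I molecule made chiefly by the liver, had the lowest difference of all members, with 5.56 in CD36KO and 6.12 in WT. Its 1.48-fold lower value was just inside the threshold and passed it under quantile normalization, at -0.60. These 3 genes account for the range of the nonclassical group, since the other 6 above the filter differed by less than 0.32.

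Of those 6 besides H2-T18, H2-M3, which presents N-formylated peptides of bacteria and mitochondria, read 6.67 in CD36KO and 6.46 in WT. H2-Q2 read 10.36 in CD36KO and 10.54 in WT, and H2-Q5 read 5.26 in CD36KO and 5.35 in WT. H2-M10.1, of a family known from the vomeronasal organ, read 5.49 in CD36KO and 5.41 in WT. Cd1d1, which presents lipids to NKT cells, read 6.05 in CD36KO and 6.03 in WT, a difference of 0.021 that became -0.013 under quantile normalization. Over all classes the members below the filter, H2-M9, H2-T24 and H2-D4, read between 3.12 and 4.31 over both pools and differed by between -0.00043 and 0.38, and with no detection calls such low values may hold no signal.

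The class II alpha and beta chains that C57BL/6 mice express as a pair, H2-Aa and H2-Ab1, were both higher in CD36KO. H2-Aa read 12.35 in CD36KO and 12.00 in WT, and its 4 probe sets differed by 0.30 to 0.71. H2-Ab1 read 12.14 in CD36KO and 11.73 in WT, a difference of 0.41. Its other probe sets read 11.32 and 10.35 in CD36KO, against 10.50 and 9.67 in WT, differences of 0.82 and 0.68, so that the mean over the 3 was 0.64 and past 1.5-fold. All 7 probe sets of these chains were higher in CD36KO, and 3 of them were past 1.5-fold, against 6.55% of all probe sets above the filter. These are repeated readings of H2-Aa and H2-Ab1 and not independent members. All 4 probe sets of H2-Aa and most of those of H2-Ab1 carry a suffix that marks probes shared between sequences, so their signals may be mixed.

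H2-Eb1, the beta chain of the H2-E molecule, read 11.69 in CD36KO and 11.25 in WT. Its alpha chain partner H2-Ea is known to be silent in C57BL/6 mice through a deletion in the promoter. H2-Ea read 6.08 in CD36KO and 6.09 in WT at the probe set above the filter, the only difference below 0 among the class II genes at the probe set used for the gene, and between 2.39 and 2.94 in both pools at its other probe sets. H2-Eb2, a less studied beta chain gene, read 5.06 in CD36KO and 4.92 in WT. The 3 chains with differences of 0.36 to 0.45 were thus H2-Aa, H2-Ab1 and H2-Eb1.

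Class II promoters are known for a compact module, in which an X box bound by the RFX complex and a Y box bound by NF-Y together recruit the coactivator CIITA. The stretches of H2-Aa (chr17:34287852-34287886, minus strand) and H2-Eb1 (chr17:34305760-34305851, plus strand) are shown because these chains had differences of like size. Capitals mark the Y box letters ATTGG or their reverse complement and the X box letters AGCAACTGATG, which were read from H2-Eb1 and searched for exactly.
H2-Aa: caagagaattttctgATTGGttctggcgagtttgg
H2-Eb1: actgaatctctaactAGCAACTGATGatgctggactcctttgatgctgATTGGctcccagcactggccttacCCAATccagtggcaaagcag
The Y box letters stood 48 bases before the start in H2-Aa and 59 in H2-Eb1, and 7 of the 8 class II genes with a promoter in the table held them, on either strand, as did 6 of 9 class I and 4 of 6 nonclassical genes. So short a motif was in 33.8% of all 32851 windows. The X box letters were in 6 of the windows (0.0183%), of which those of H2-Eb1 and H2-Eb2 are members, whose differences were 0.45 and 0.15. The match in H2-Eb1 was given by the choice of letters. An exact search misses X boxes spelled otherwise, so it cannot show that the other class II promoters lack one.

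The genes that load class II molecules read higher in CD36KO as well. Cd74, the invariant chain that guides class II molecules to endosomes, read 12.72 in CD36KO and 12.24 in WT, a difference of 0.48. H2-DMa, a chain of the molecule that exchanges the invariant chain fragment for peptide, read 9.90 in CD36KO and 9.38 in WT, a difference of 0.52, but 6.44 in CD36KO and 6.74 in WT at its second probe set. H2-DMb2, a beta chain of the same molecule, read 7.21 in CD36KO and 7.00 in WT, and its other probe sets differed by 0.32 and 0.57.

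H2-Oa and H2-Ob, chains of the inhibitor of H2-DM found chiefly in B cells, read 6.20 and 5.59 in CD36KO against 6.12 and 5.34 in WT. Ctss, the cathepsin that cuts the invariant chain, read 11.52 in CD36KO and 11.42 in WT. Ciita, the master coactivator of class II genes, read 4.92 in CD36KO and 4.58 in WT, a difference of 0.34 close above the filter, and it differed by 0.50 at its second probe set, which passed the filter through the CD36KO pool alone, and by 0.71 at a further one below the filter. The 7 genes of this group all had a difference above 0, with a median of 0.25, and the 5 chain genes had a median of 0.36.

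**Figure D3:**
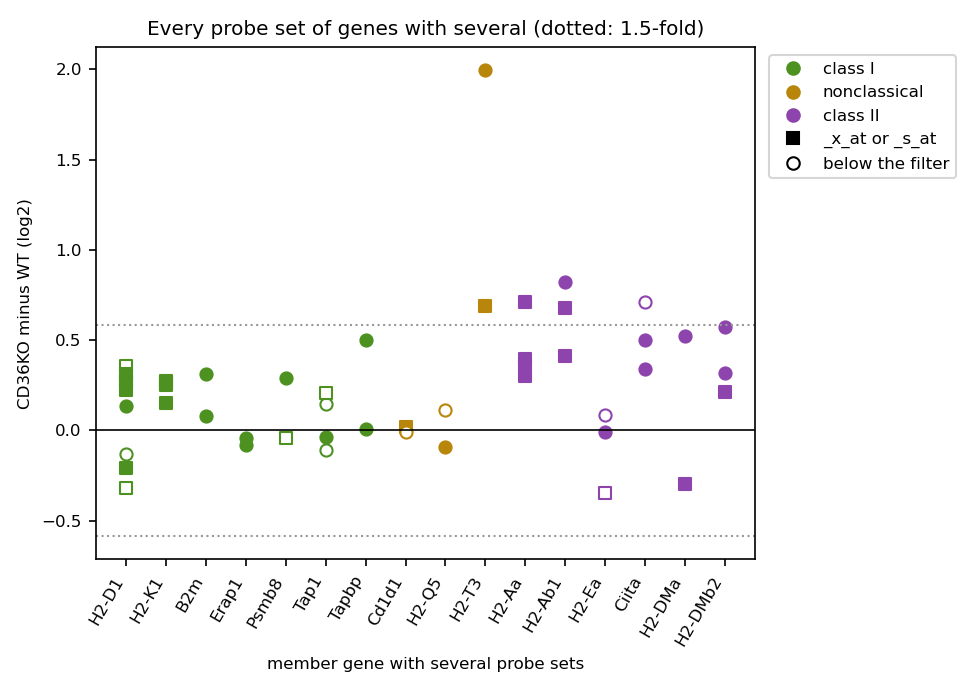
CD36KO minus WT difference in log2 (vertical axis) of every probe set of the member genes with several; squares are probe sets whose suffix (_x_at or _s_at) marks probes shared between sequences, open symbols lie below the filter, and dotted lines mark 1.5-fold. The H2-Aa and H2-Ab1 points all lie above 0, the H2-DMa points lie on both sides of it, and the H2-T3 points lie at 0.69 and 2.00.

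Over all members, 11 genes had several probe sets above the filter. All of them read higher in CD36KO for 8 genes and lower for 1, Erap1, while H2-D1 and H2-DMa had both signs. Counted singly, 42 of 54 member probe sets above the filter had a difference above 0, against 49.4% of all probe sets. Many of these are repeated readings of the same genes, some with shared probes, and not independent members. By gene, 24 of 33 had a difference above 0. Of the 54, 2 passed through the CD36KO pool alone, and 40 of the other 52 had a difference above 0.

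In bulk tissue a larger number of cells of one type and more RNA per cell cannot be told apart. Most markers above the filter in the joint list of macrophages and dendritic cells, and in that of B cells, read higher in the CD36KO pool too. Of 17 macrophage and dendritic cell markers on the array 15 were above the filter, with a median of 0.26. Of these, 14 had a difference above 0 and 4 were at least 1.5-fold higher, against 48.8% and 5.31% of all genes above the filter. Cd68, Cx3cr1, Cd209a and Zbtb46 passed the filter through the CD36KO pool alone and so could only read higher there. Of the 11 markers above it in both pools, 10 had a difference above 0 and 3 were past 1.5-fold, with a median of 0.26. The linear signal summed over all 17 was 3534 in CD36KO and 2311 in WT, of which Lyz2 alone gave 1518 in CD36KO and 704 in WT. Log2 levels of the 17 ran from 2.94 to 10.57 in CD36KO and from 2.89 to 9.46 in WT. The markers above the filter in both pools that were past 1.5-fold were Lyz2, a lysozyme (10.57 in CD36KO, 9.46 in WT), and the complement genes C1qc (7.89 in CD36KO, 7.06 in WT) and C1qa (8.02 in CD36KO, 7.22 in WT). Cd68, a lysosomal protein of macrophages, read 5.18 in CD36KO and 3.46 in WT, where the low value may hold no signal. The dendritic cell markers Itgax and Flt3, above the filter in both pools, did not share 1 direction. They read 6.26 and 5.95 in CD36KO against 6.38 and 5.84 in WT. Itgax was the only marker of this list above the filter that read lower in CD36KO.

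Of 9 B cell markers, 5 were above the filter, with a median of 0.40. All 5 read higher in CD36KO and 1 was past 1.5-fold, against 48.8% and 5.31% of all genes above the filter. These 5 summed to a linear signal of 485 in CD36KO and 348 in WT, and all 9 to 559 in CD36KO and 421 in WT. Ms4a1, which encodes CD20, read 6.28 in CD36KO and 5.32 in WT, with a difference of 0.53 at its second probe set, and the receptor subunit Cd79a read 7.25 in CD36KO and 6.70 in WT. The 8 epithelial markers had a median of 0.27 with 6 above 0, and a summed signal of 41653 in CD36KO and 36067 in WT. The median of the T and NK cell markers was -0.076 over 10 genes. These 10 summed to 3185 in CD36KO and 3446 in WT, all 15 on the array to 3242 in CD36KO and 3503 in WT, and 1 of the 10, Klrd1, was at least 1.5-fold lower (5.91 in CD36KO, 6.80 in WT). The part of macrophages, B cells or epithelium in the class II values was not tested.

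Genes of the same pathways outside the H2 complex were read from separate lists. The further class I pathway genes, which are chaperones, proteasome subunits, proteasome activators and Sec61b, were all above the filter. All 11 had a difference above 0, against 48.8% of all genes above the filter. Their median was 0.12, or 0.25 with every probe set counted. Of these, Pdia3, the disulfide isomerase of the peptide loading complex, was 1.68-fold higher at 10.54 in CD36KO and 9.79 in WT. Tapbpl, a tapasin-like peptide editor, read 8.26 in CD36KO and 7.77 in WT, with -0.30 at its second probe set, and the proteasome subunit Psmb7 read 10.32 in CD36KO and 9.88 in WT. No gene of this list was lower at the probe set used for it, but the other probe sets of Hspa5 differed by -0.13 and 0.29.

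The further class II pathway genes had 8 of 15 differences above 0, against 48.8% of all genes above the filter. Their median was 0.073, which was -0.013 with the 75th percentile filter. Lgmn, an endosomal protease that cuts antigens, was 2.07-fold higher at 7.66 in CD36KO and 6.61 in WT. It was the only one past 1.5-fold at the probe set used for the gene. Without regard to the filter, other probe sets differed by up to 0.69 for Nfyb, 0.68 for Cd86 and 0.59 for Ctsb. Among the factors that bind the X and Y boxes, Rfxank read 6.68 in CD36KO and 7.07 in WT, with -0.65 and -0.25 at its other probe sets. Rfx5 read 7.01 in CD36KO and 7.14 in WT. Nfya read 7.02 in CD36KO and 6.75 in WT, with -0.31 and 0.32 at its other probe sets. Ctsl, a further cathepsin, read 9.08 in CD36KO and 8.61 in WT, with -0.058 at its second probe set. These regulators and proteases did not share 1 direction, while 11 of the 12 class II genes did. The class I-like genes outside H2 had 4 of 8 above the filter, Azgp1 through the CD36KO pool alone, and a median of 0.20, which was -0.10 for the 1 gene left by the 75th percentile filter, with Hfe, which regulates iron uptake, at 6.18 in CD36KO and 5.84 in WT (no difference at its second probe set) and Fcgrt, the neonatal Fc receptor, at 8.45 in CD36KO and 8.56 in WT.

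Interferon gamma is the main inducer of both MHC classes. Of 24 genes of its pathway and targets on the array, 22 passed the filter, with a median of 0.32 and 15 of 22 above 0. Of the 22, 6 were higher by 1.5-fold or more and 0 lower by as much. Among all genes above the filter 5.31% were higher by that much, 3.31% lower, and 48.8% had a difference above 0. Iigp1, a GTPase of cell-autonomous defence, read 7.77 in CD36KO and 6.62 in WT, with a difference of 0.32 at its second probe set. The guanylate-binding protein Gbp2 read 7.18 in CD36KO and 6.47 in WT, with 0.63 at its second probe set. The kinase Jak1 read 8.82 in CD36KO and 8.14 in WT, but its other probe sets differed by -0.19 and 0.15. The chemokine Cxcl9 read 6.69 in CD36KO and 6.04 in WT, with 0.25 at its second probe set. Other targets read lower in CD36KO. The chemokine Cxcl10, at 5.47 in CD36KO and 5.87 in WT, had the lowest difference of the list, -0.40. Igtp read 9.52 in CD36KO and 9.74 in WT. Irf1, which drives Ciita and the class I genes, read 10.43 in CD36KO and 10.42 in WT, and Ifng itself was below the filter at 2.91 in CD36KO and 2.54 in WT. The list's targets thus differed unevenly, and its median was 0.15 when each gene was read at its least differing probe set.

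**Figure D4:**
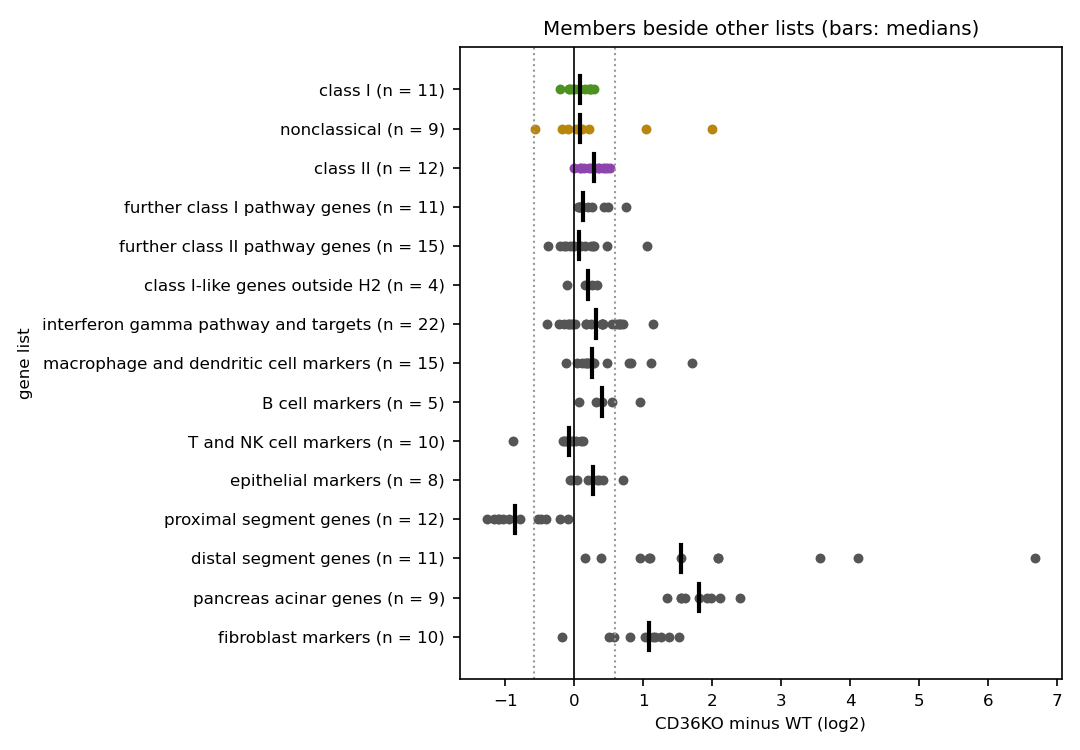
CD36KO minus WT difference in log2 (horizontal axis) of each gene above the filter, for the 3 classes of members and the 12 other lists; each point is a gene, black bars are medians and dotted lines mark 1.5-fold. The class II median of 0.29 lies beside those of the interferon gamma list (0.32), macrophage and dendritic cell markers (0.26) and epithelial markers (0.27), and those of the segment, pancreas and fibroblast lists lie farther from 0.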

How the data were processed

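Messenger RNA was measured on 2 Affymetrix arrays, 1 per genotype, each of a pool of 3 animals; cRNA came from 100 ng of total RNA, per the labels' protocols. The authors deposited 1 log2 value per probe set; the sources used here do not give their summarization and normalization, and the log base was read from the values. Neither detection calls nor background were used here, so the number of arrays limits the precision. Probe sets were named from the platform annotation (34958 with 1 symbol, 932 with several, 9211 unnamed here), and the identifiers of all 36 members were found in the RefSeq table of GRCm38.p6, with 0 symbols changed. Differences were taken with no further normalization and no test. The members and lists were chosen with earlier results of these data known. Named were all members above the filter, up to 4 genes of largest difference in the pathway and marker lists, and further genes of known role chosen after their values were seen. Alternatives were median centring, quantile normalization, lowess removal (fraction 0.3), other choices of probe set and filter, and thresholds of 0.32 and 2-fold. The tools were pandas 2.3.3, statsmodels 0.14.6 and matplotlib 3.10.9 with NumPy 2.4.6 in Python 3.11.15, and the procedure was tested on simulated data.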

Additional observations from a re-analysis of the deposited data

How the results depend on the processing

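Direction and size were recomputed under each alternative, and a median within 0.1 (log2) of the value given was taken as close. The class II median stayed between 0.23 and 0.37 under all alternatives but the 75th percentile filter (6.60), under which it was 0.41 over 7 genes. That filter gave 0.21 over 5 nonclassical genes, -0.10 for the 1 class I-like gene left, -0.013 for the further class II pathway genes, and no filter gave 0.037 for the class I-like genes. With every probe set counted, an alternative chosen after seeing the data, the class I median was 0.22, that of the further class I pathway genes 0.25, and 6 of 54 member probe sets were at least 1.5-fold higher, against 6.55% of all probe sets. Probe sets of the same gene are repeated readings and not independent. Taking the probe set of smallest difference put the interferon gamma median at 0.15. At a threshold of 0.32 (log2) 8 members were higher and 2 lower, and quantile normalization put 1, H2-Q10, at least 1.5-fold lower. Without the _x_at and _s_at probe sets the class II median was 0.32, and H2-Ab1 read 0.82. H2-T3 was 1.34 with the mean over its probe sets. H2-DMa was -0.30 with its probe set of smallest difference. The scaling alternatives kept the sign of every member above the filter except Cd1d1. The causes were not tested. With 1 array per genotype no replicate could be left out. No paired analysis was possible because each group holds 1 array.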

Other observations

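A further 15 probe sets are annotated to several genes at once, at least 1 of them a member, and were not counted as members. Of these, 12 were above the filter, 9 with a difference above 0 and 5 at least 1.5-fold higher in CD36KO, and 0 were at least 1.5-fold lower. Of all probe sets above the filter, 49.4% had a difference above 0 and 6.55% were at least 1.5-fold higher. The differences of the 12 ranged from -0.24 to 1.80, with a median of 0.53. The genes behind these signals cannot be told apart on this array.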
